A study of Homo sapiens with 9 samples.

Results

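The 10 keratinocyte integrins are the genes ITGA2, ITGA3, ITGA5, ITGA6, ITGAV, ITGB1, ITGB4, ITGB5, ITGB6 and ITGB8, which encode the α and β subunits of the matrix receptors of this cell type. They were taken by gene symbol from the 16199 genes listed in at least 1 of the 9 libraries. No rule on their values was used, but earlier results of these data were known when they were chosen. All 10 of 10 were listed in every library and passed the filter on low counts, with a mean of 1011 (ITGA5) to 23693 (ITGB4) expected counts per library. The cells were HaCaT, a spontaneously immortalized human keratinocyte line labelled as wild type (WT), and every library comes from this 1 line. The 3 groups, with 3 libraries each, were untreated cells in serum-free medium, cells given EGF (10 nM) and cells given bleogen pB1 (1 µM), a cactus-derived miniprotein that the study describes as an agonist of the EGF receptor. Both agents were added in serum-free medium for 24 h to confluent cells. Nothing in the labels states that the replicates of a group came from separate cultures, so that p-values measure the spread between these libraries, which may be technical.

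An integrin is a heterodimer of 1 α and 1 β subunit that spans the plasma membrane, binds extracellular matrix or latent TGF-β outside the cell and couples to the cytoskeleton inside. In epidermis, α6β4 anchors basal cells to laminin through hemidesmosomes, whereas α2β1 and α3β1 bind collagen and laminin. The receptors α5β1 and αvβ6 are known for their low level in resting epidermis and their appearance at the edge of wounds, where keratinocytes migrate over fibronectin. The comparisons below ask which of these mRNAs moved when the EGF receptor was engaged by its natural ligand or by bleogen pB1.

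The libraries held 20288417 to 21320994 expected counts, and a floor of 3 counts stood at 0.141 to 0.148 CPM (library-scaled counts, with TMM factors), which allows for counting error only. All 10 of 10 keratinocyte markers were detected in each group. Their summed level was 13540 to 14767 CPM without treatment, 13347 to 15455 with bleogen pB1 and 11425 to 12060 with EGF. By this sum the EGF-treated libraries lay below all others. KRT5 was its largest single part and fell from 7811 ± 499 to 3604 ± 122 CPM (SD, n = 3) with EGF. KRT14 rose from 1578 ± 138 to 2908 ± 38.0 CPM. Of the 10 markers, 3 were higher and 3 lower with EGF as differentially expressed genes (DEGs, defined below), so the sum does not stand for the set. The 7 fibroblast markers summed to 7.62 to 9.31 CPM without treatment, 6.08 to 9.17 with bleogen pB1 and 1.30 to 2.00 with EGF. PDGFRA was at 0 in the untreated and bleogen pB1-treated cells, COL1A2 in both treated groups and LUM in the EGF-treated cells. The 4 endothelial markers summed to 2.41 to 3.68 CPM without treatment, 0.464 to 0.749 with bleogen pB1 and 0.0481 to 0.300 with EGF. Of these markers TIE1 was at 0 in all groups and KDR in the untreated and EGF-treated cells. Their 1 tested gene, CDH5, was lower as a DEG with both agents, by a log2 fold change of -2.34 with bleogen pB1 (adjusted p = 0.0077) and -4.70 with EGF. The 5 melanocyte markers summed to at most 1.72 CPM and the 5 leukocyte markers to at most 2.11 CPM. The part of any of these in the results was not tested. In such bulk samples, fewer cells of a type and less RNA per cell cannot be told apart.

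Compared per length, the subunits spanned a wide range in untreated cells. The FPKM of ITGB4, the β subunit of hemidesmosomes, was 191 ± 7.20 (SD, n = 3), and that of ITGB1, the β subunit shared by α2, α3 and α5, was 147 ± 7.27. ITGA6, the α partner of β4, had an FPKM of 102 ± 1.69 and ITGA3, the laminin-binding partner of β1, one of 100 ± 2.20, and these neighbours overlapped between libraries. ITGA2, which encodes the collagen-binding α subunit, followed at 37.3 ± 2.09, ITGAV at 30.7 ± 2.24 and ITGB5 at 24.3 ± 0.423. The lowest FPKM values were those of ITGB6 (15.6 ± 0.471), ITGB8 (12.5 ± 0.974) and ITGA5 (8.64 ± 0.563). Apart from the pair ITGA6 and ITGA3, the libraries of no 2 neighbours in this order overlapped. The laminin-binding subunits and ITGB1 thus stood above the αv and fibronectin-binding subunits in the resting cells.

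The order of the means was the same in bleogen pB1-treated cells, where ITGA6 (142 ± 9.50 FPKM) separated from ITGA3 (97.7 ± 3.28) and ITGA2 came to overlap ITGAV. In EGF-treated cells ITGA6 had the highest mean, at 240 ± 20.4 FPKM, and its libraries overlapped those of ITGB1 (232 ± 2.70), which in turn overlapped those of ITGB4 (228 ± 11.7). ITGA3 came next at 181 ± 9.71 and ITGA2 at 43.9 ± 0.650. ITGA5 moved from the last place to the eighth, with an FPKM of 17.0 ± 1.07 that overlapped that of ITGB6 (16.0 ± 1.94), and ITGB8 was last at 9.26 ± 1.54.

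**Figure D1:**
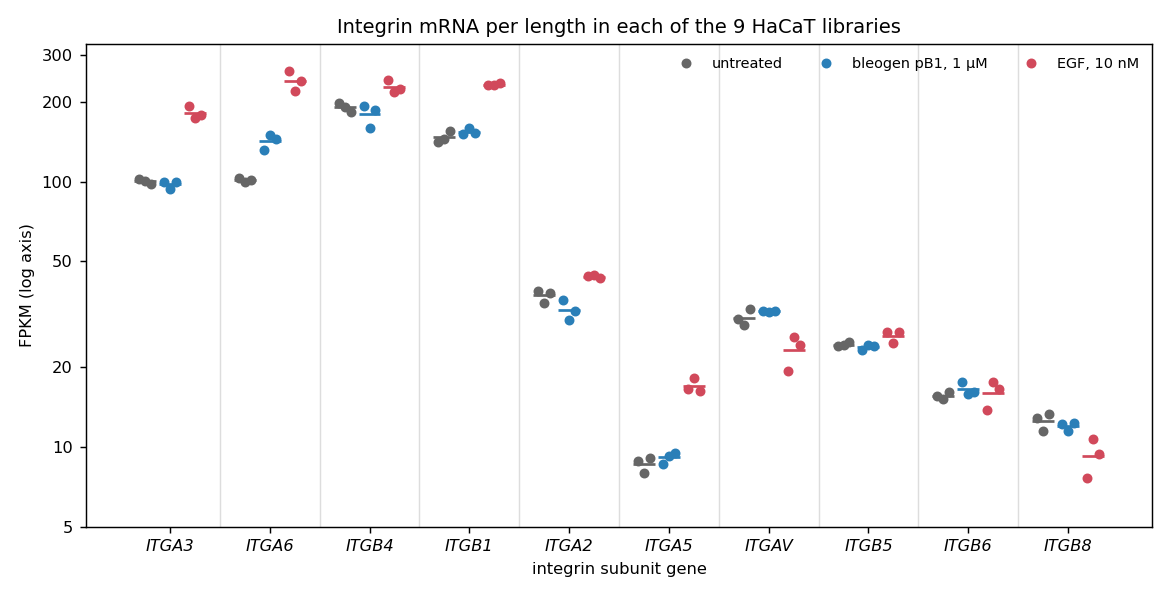
FPKM (log axis) of each of the 10 integrin genes in each of the 9 libraries, with a bar at the mean of each group of 3. The EGF-treated libraries lie above all others for ITGA2, ITGA3, ITGA5, ITGA6, ITGB1 and ITGB4 and below all others for ITGAV and ITGB8. The bleogen pB1-treated libraries stand apart from the untreated ones for ITGA6 (132 to 150 against 99.9 to 103).

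Sequences are given for the start regions of the 3 genes whose 250 bases before the RefSeq start touched no annotated exon: ITGA6 and ITGA5, with the 2 largest rises under EGF, and ITGB5, with a rise of 0.18 on the log2 scale. RefSeq (GRCh38.p14) listed such a region for 8 of the 10 genes, and each was identical to the hg38 genome. The regions are chr2:172427086-172427335 (+ strand) for ITGA6, chr12:54419267-54419516 (- strand) for ITGA5 and chr3:124901419-124901668 (- strand) for ITGB5. They are printed 5′ to 3′, and capitals mark matches to the GC box GGGCGG, bound by Sp factors, or to the TATA box TATAAA, on either strand.
ITGA6: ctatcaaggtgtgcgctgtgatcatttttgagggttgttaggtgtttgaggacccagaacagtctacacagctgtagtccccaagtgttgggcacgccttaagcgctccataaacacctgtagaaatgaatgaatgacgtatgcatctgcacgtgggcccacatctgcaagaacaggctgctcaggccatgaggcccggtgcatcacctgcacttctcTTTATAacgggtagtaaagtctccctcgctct
ITGA5: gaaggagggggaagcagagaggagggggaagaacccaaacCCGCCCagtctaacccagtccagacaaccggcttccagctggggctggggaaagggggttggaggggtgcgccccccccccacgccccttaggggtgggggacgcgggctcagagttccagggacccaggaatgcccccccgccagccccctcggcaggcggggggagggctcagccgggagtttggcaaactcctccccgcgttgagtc
ITGB5: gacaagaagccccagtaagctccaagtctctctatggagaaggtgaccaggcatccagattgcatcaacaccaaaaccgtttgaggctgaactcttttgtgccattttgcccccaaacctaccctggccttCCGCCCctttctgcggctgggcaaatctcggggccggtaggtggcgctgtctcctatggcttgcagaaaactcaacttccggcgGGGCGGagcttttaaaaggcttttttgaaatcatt

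The AP-1 motif TGANTCA, the site of the FOS and JUN factors induced by growth factors, matched in 0 of the 8 regions and in 6.57% of all 35116 RefSeq regions of this length. The GC box was found in 5 of the 8, those of ITGA2, ITGA5, ITGB1, ITGB5 and ITGB8, against 42.6% of all regions. The TATA letters occurred in the ITGA6 region alone, on the opposite strand, against 10.7% of all. No capital stretch above belongs to 2 motifs. The ITGA6 and ITGA5 regions share none of these matches and differ in base composition, with a GC content of 50.8% and 70.0%.

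EGF raised most the mRNAs of ITGA6, ITGA5, ITGA3 and ITGB1 and lowered those of ITGAV and ITGB8. Of the 10 integrins, 4 were higher as differentially expressed genes (DEGs, an adjusted p of at most 0.05 in edgeR's quasi-likelihood test and an absolute log2 fold change of at least 0.5) and none was lower. Over all genes tested, 36.9% were DEGs in either direction and 15.1% were higher. By the adjusted p alone 7 were higher, 2 were lower and 1 did not pass, against 66.1% of all genes in either direction. The EGF-treated and untreated libraries did not overlap for 9 of the 10, against 70.4% of all genes. The median log2 fold change of the 10 was 0.30, beside -0.01 for all genes.

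Among the laminin receptors, ITGA6 (chr2:172427354-172506459, + strand) was at 592, 577 and 578 CPM in untreated and at 1569, 1314 and 1424 CPM in EGF-treated libraries. Its lowest EGF-treated library was thus above its highest untreated one, with a fold change of 2.47 (log2 1.30, SE 0.07, adjusted p = 1.5e-08). ITGB4 (chr17:75721328-75757818, + strand), the β subunit that pairs with α6 in hemidesmosomes, was at 1124, 1093 and 1036 CPM without and 1434, 1289 and 1323 CPM with EGF. The groups were again apart, but the log2 fold change was 0.31 (SE 0.08, adjusted p = 0.0029), under the limit of 0.5. ITGA3 (chr17:50055968-50090481, + strand), which pairs with β1 to bind laminin at focal contacts, was at 505, 499 and 480 CPM without and 995, 893 and 913 CPM with EGF. The log2 fold change of ITGA3 was 0.92 (SE 0.06, adjusted p = 6.4e-08), a fold of 1.89.

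The mRNAs of both subunits of the fibronectin receptor α5β1 rose with EGF. ITGA5 (chr12:54395261-54419266, - strand) was at 36.7, 33.5 and 37.5 CPM in untreated cells and at 72.0, 79.0 and 70.4 CPM with EGF. This is a fold of 2.05 (log2 1.04, SE 0.07, adjusted p = 1.2e-07), in the α subunit with the lowest level per length. ITGB1 (chr10:32887273-33005792, - strand), the common β partner, was at 530, 545 and 577 CPM without and 909, 901 and 918 CPM with EGF, a log2 fold change of 0.72 (SE 0.05, adjusted p = 2.2e-07). ITGA2 (chr5:52989340-53094779, + strand), the α subunit of the collagen receptor, was at 301, 272 and 293 CPM without and 356, 358 and 348 CPM with EGF. Its groups did not overlap either, with a log2 fold change of 0.29 (SE 0.07, adjusted p = 0.0020), under the fold limit.

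The αv group, whose receptors bind vitronectin and fibronectin (αvβ5, αvβ6) or activate latent TGF-β (αvβ6, αvβ8), moved in both directions, with no gene past the fold limit. ITGAV (chr2:186590010-186680901, + strand) was at 209, 200 and 228 CPM in untreated cells and at 140, 186 and 174 CPM with EGF, a log2 fold change of -0.35 (SE 0.09, adjusted p = 0.0040). ITGB8 (chr7:20330702-20415754, + strand) was at 111, 99.7 and 114 CPM without and 69.4, 96.4 and 84.4 CPM with EGF, a log2 fold change of -0.38 (SE 0.10, adjusted p = 0.0042). For both genes the first EGF-treated library was the lowest of all 9, and without it the log2 fold changes were -0.23 (adjusted p = 0.0067) for ITGAV and -0.26 (adjusted p = 0.0087) for ITGB8. That library also listed the fewest genes, 14078 against 14212 to 14401 in the others, and the part of this in the result was not tested.

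ITGB6 (chr2:160099667-160200313, - strand), the β subunit of the wound-edge receptor αvβ6, was at 69.8, 68.7 and 72.0 CPM without and 64.8, 82.5 and 77.4 CPM with EGF. The first EGF-treated library was again the lowest, the groups overlapped and the log2 fold change was 0.09 (95% confidence interval -0.09 to 0.27, adjusted p = 0.34). Without that library it was 0.19 with an adjusted p of 0.025, so that the missing call for ITGB6 rests on 1 library. ITGB5 (chr3:124761948-124901418, - strand), whose product pairs with αv as a vitronectin receptor, was at 97.5, 101 and 101 CPM without and 118, 107 and 116 CPM with EGF. Its log2 fold change of 0.18 (SE 0.06, adjusted p = 0.010) did not pass with upper-quartile factors (0.08, adjusted p = 0.21) or without scaling factors (0.13, adjusted p = 0.059).

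**Figure D2:**
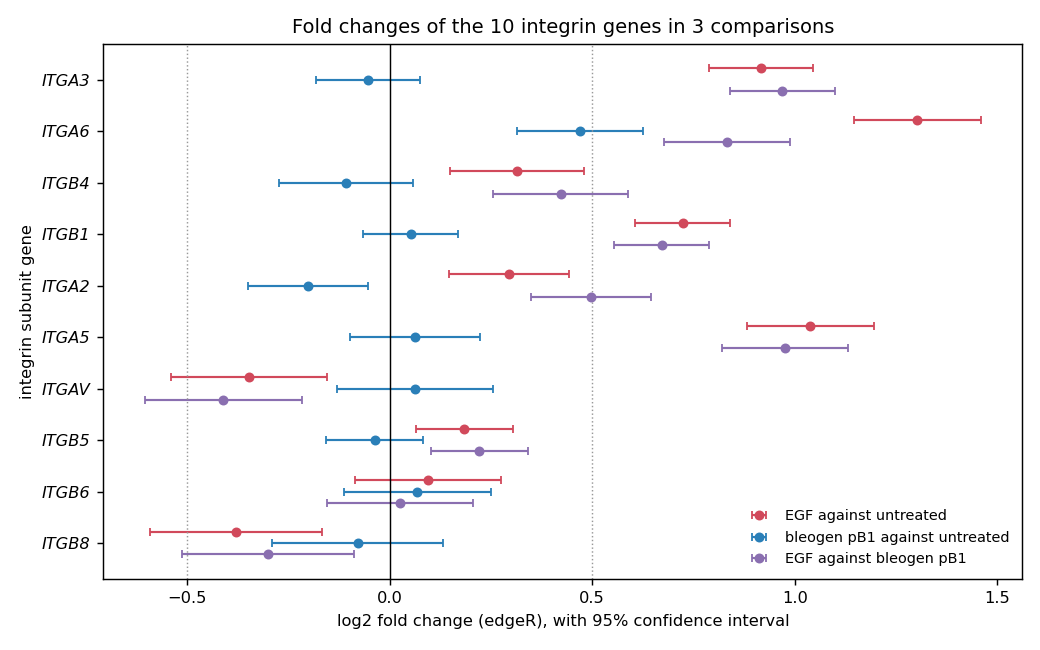
Log2 fold change of each integrin gene from edgeR with its 95% confidence interval, for EGF against untreated, bleogen pB1 against untreated and EGF against bleogen pB1; dotted lines mark 0.5 in each direction. Under EGF the intervals of ITGA6, ITGA5, ITGA3 and ITGB1 lie beyond 0.5 on the higher side, and under bleogen pB1 the intervals of ITGA6 and ITGA2 do not reach 0.

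Bleogen pB1 at 1 µM changed 1 of the 10 mRNAs, ITGA6, and this by less than the fold limit. ITGA6 was at 750, 849 and 819 CPM in the treated libraries, all above the 577 to 592 CPM of the untreated ones, and was the 1 member whose groups did not overlap, against 29.1% of all genes. This was a fold of 1.38 (log2 0.47, SE 0.07, adjusted p = 0.0028). In this comparison 4.11% of all genes passed the adjusted p, 1.56% as higher. With the limit of 0.5 on the log2 fold change, 0 of the 10 integrins were DEGs in edgeR, as in DESeq2, against 1.48% of all genes, and 2 had an unadjusted p under 0.05 (22.2% of all genes). Without the first bleogen pB1-treated library, the lowest of its group, ITGA6 was at 0.52 (adjusted p = 0.0014) and so became a DEG.

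The other gene with an unadjusted p under 0.05 was ITGA2, at 275, 230 and 248 CPM in treated cells. It had a log2 fold change of -0.20 (95% confidence interval -0.35 to -0.05, adjusted p = 0.11), and without the first bleogen pB1-treated library one of -0.27 with an adjusted p of 0.018. The other 8 genes overlapped between the groups and had adjusted p-values of 0.44 to 0.74. For ITGA3, ITGA5 and ITGB1, which EGF raised, the 95% confidence intervals were -0.18 to 0.08, -0.10 to 0.22 and -0.07 to 0.17, so that rises of the size seen with EGF lie outside them. For ITGAV and ITGB8 they were -0.13 to 0.26 and -0.29 to 0.13. The median log2 fold change of the 10 was 0.01, and all genes together had one of -0.001.

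The 2 agents were also compared directly, at doses that differ (10 nM and 1 µM), and this comparison shares its libraries with those above. Under EGF 4 integrins were higher as DEGs, against 28.8% of all genes in either direction and 10.8% as higher. The log2 differences were 0.98 for ITGA5, 0.97 for ITGA3, 0.83 for ITGA6 and 0.67 for ITGB1, with adjusted p-values from 5.3e-08 to 1.1e-06. ITGA6, the 1 gene that moved with both agents, was thus 1.78-fold higher with EGF than with bleogen pB1. ITGA2 (0.50, just under the limit before rounding, adjusted p = 5.4e-05), ITGB4 (0.42, adjusted p = 0.00047) and ITGB5 (0.22, adjusted p = 0.0041) passed the adjusted p alone, as did 58.2% of all genes. ITGAV was lower with EGF by this test (-0.41, adjusted p = 0.0017). ITGB8 (-0.30, adjusted p = 0.019) did not pass without the first EGF-treated library (-0.18, adjusted p = 0.057) or without the third bleogen pB1-treated one (-0.28, adjusted p = 0.061). The difference for ITGB6 was 0.03 (95% confidence interval -0.15 to 0.21).

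Since an integrin needs both subunits, ratios of FPKM were taken within each library, which do not depend on its scaling. The ratio of ITGA6 to ITGB4 was 0.532 ± 0.0173 (SD, n = 3) without treatment, 0.802 ± 0.133 with bleogen pB1 and 1.05 ± 0.0390 with EGF, and none of the 3 groups overlapped. The ratio of ITGAV to ITGB1 was 0.209 ± 0.00868 without treatment, 0.211 ± 0.00669 with bleogen pB1 and 0.09995 ± 0.0145 with EGF. Per β1 mRNA there was thus less αv mRNA in every EGF-treated library than in any other. ITGA5 stood at 0.232 ± 0.00553 of ITGA2 without treatment, 0.280 ± 0.0350 with bleogen pB1 and 0.387 ± 0.0193 with EGF. ITGA2 itself fell relative to ITGA3, from 0.373 ± 0.0217 to 0.243 ± 0.0139 with EGF, in libraries that did not overlap. The ratio of ITGA5 to ITGA3 overlapped between untreated (0.0863 ± 0.00646) and EGF-treated cells (0.0941 ± 0.00980). An exact permutation test, two-sided, of 3 against 3 libraries cannot give a p under 0.1, and over the 24 ratios and comparisons computed the lowest Benjamini-Hochberg adjusted value of this exact test was 0.171. None of the ratios can therefore pass a threshold of 0.05.

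The β subunits β5, β6 and β8 pair with αv alone, so their mRNAs can be set against each other. Of their summed FPKM, ITGB5 took 46.4% ± 1.12 (SD, n = 3) in untreated cells, ITGB6 29.7% ± 0.0627 and ITGB8 23.9% ± 1.18. In EGF-treated cells the share of ITGB8 was 15.8%, 20.3% and 17.7% in the 3 libraries, all below the 22.6% to 24.6% of the untreated ones. The share of ITGB5 was 51.1% ± 4.57 with EGF, overlapping the untreated libraries, and that of ITGB6 was 30.9% ± 2.35. With bleogen pB1 the shares were 45.4% ± 1.54, 31.6% ± 1.40 and 23.0% ± 0.592 for ITGB5, ITGB6 and ITGB8. The libraries for ITGB6 (30.8% to 33.2%) lay above the untreated ones (29.6% to 29.8%). The ratio of ITGB6 to ITGB5 did not overlap either, at 0.696 ± 0.0541 against 0.640 ± 0.0139. The gap was small, with 0.658 in the lowest treated library against 0.649 in the highest untreated one. Such separation was common, in 14 of the 24 ratios and comparisons, and neither gene passed in edgeR (adjusted p = 0.67 for ITGB6 and 0.74 for ITGB5). These are shares of mRNA, not of receptors, and they depend on the deposited gene lengths.

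For the gene with the largest rise under EGF, ITGA6, the genes with the most similar profile over the 9 libraries were EFNB2, which encodes an ephrin ligand, SLC43A3, and HSPA8, a constitutive chaperone. Their root mean square differences from ITGA6 in centred log2 CPM were 0.08, 0.08 and 0.09, and their log2 fold changes were 1.33, 1.22 and 1.19 with EGF and 0.37, 0.41 and 0.46 with bleogen pB1. For ITGB8, the gene with the largest fall, they were HFE, CNPY3 and THNSL1, with differences of 0.06, 0.06 and 0.07.

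Of the 16 other human integrin subunits examined, 14 were listed in at least 1 library and 5 passed the filter on low counts, 4 of them as DEGs higher with EGF. ITGB7, which pairs with α4 and αE, was at 1.01, 1.47 and 1.29 CPM without and 5.80, 5.39 and 5.54 CPM with EGF (log2 fold change 2.14, adjusted p = 1.1e-06). ITGAE, the αE subunit that binds E-cadherin, was at 3.80 ± 0.498 CPM (SD, n = 3) without and 8.68 ± 1.81 CPM with EGF (1.19, adjusted p = 9.7e-05). ITGA1, a collagen-binding subunit, was at 0.759 ± 0.194 without and 1.47 ± 0.309 CPM with EGF (0.95, adjusted p = 0.013). All 3 of these genes had lower CPM than any of the 10 keratinocyte integrins in every untreated and EGF-treated library. ITGAM, a leukocyte subunit, was at 0.400, 2.52 and 1.73 CPM with EGF, and its first library overlapped the untreated ones (0.337, 0.540 and 0.812 CPM) although the fitted change passed (1.45, adjusted p = 0.032). ITGA4 was at 21.2 ± 1.496 CPM without and 23.5 ± 5.82 CPM with EGF (0.15, adjusted p = 0.40). With bleogen pB1, edgeR called 0 of the 5. An unadjusted p under 0.05 was found for 1 of them, ITGAE (log2 fold change 0.56, adjusted p = 0.11), beside 22.2% of all genes.

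The matrix ligands of the receptors moved in both directions. Of 26 ligand genes tested, 4 were higher and 12 lower as DEGs with EGF, and 6 and 15 by the adjusted p alone, with a median log2 fold change of -0.62. LAMA3, which encodes a chain of laminin that α6β4 and α3β1 bind, was 2.00 higher on the log2 scale (SE 0.06, adjusted p = 1.6e-10). It rose from 288 ± 10.3 to 1150 ± 72.9 CPM (SD, n = 3). FBN2, a fibrillin, rose by 1.02 (adjusted p = 1.3e-05). LAMB2, a laminin chain of other basement membranes, fell by 2.42 (adjusted p = 2.5e-07). The collagen genes COL3A1 and COL5A1 fell by 2.98 and 2.82, from levels of 4.87 ± 0.387 and 9.83 ± 1.36 CPM. COL3A1 is also one of the fibroblast markers and a large part of their sum. The lower sum in the EGF-treated libraries is therefore not a separate measure beside this fall, whose cause was not tested.

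Of 9 hemidesmosome genes, some of which, such as LAMA3 and LAMB3, are also among the ligands, 6 were higher and 2 lower as DEGs with EGF, with a median log2 fold change of 0.66. PLEC, the plakin that ties β4 to keratin filaments, rose by 1.72 (SE 0.10, adjusted p = 3.1e-08), from 391 ± 19.5 to 1291 ± 201 CPM (SD, n = 3). DST, which encodes the other plakin of the hemidesmosome in its epithelial isoform, fell by 1.09 (adjusted p = 2.7e-06), and KRT5, a basal keratin, fell by 1.12 (adjusted p = 1.7e-07). COL17A1, the transmembrane collagen beside α6β4, rose by 0.66 (adjusted p = 2.1e-06). With bleogen pB1 1 of the 9 passed the adjusted p, KRT14, the keratin partner of KRT5 (log2 fold change 0.48, adjusted p = 0.0017).

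Inside the cell, 9 of 36 activators and adaptors tested were higher and 8 lower as DEGs with EGF, with a median log2 fold change of 0.13. Members of 1 family moved in opposite directions, since TNS4, a tensin without the actin-binding part, rose by 1.94 (adjusted p = 5.1e-10) while TNS3 and TNS2, 2 tensins that have it, fell by 1.78 (adjusted p = 4.9e-09) and 1.36 (adjusted p = 0.00057). NEDD9, a docking protein of the CAS family, fell by 2.64 (adjusted p = 5.3e-07), whereas FHL2 rose by 0.87 (adjusted p = 7.4e-06). Among 7 inhibitors of integrin activation or signalling, 2 were higher and 1 lower. ITGB1BP1, which competes with talin and kindlin for the β1 tail, rose by 1.02 (adjusted p = 4.0e-06), and NISCH, which binds the α5 tail, fell by 0.58 (adjusted p = 4.4e-05).

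Of 13 membrane partners, 2 were higher as DEGs with EGF and 1 with bleogen pB1. PLAUR, the urokinase receptor, which binds β1 integrins at the cell surface, was at 12.7 ± 0.372 CPM (SD, n = 3) without treatment, 19.8 ± 1.51 with bleogen pB1 and 64.7 ± 6.94 with EGF. It was called with both agents, with log2 fold changes of 0.64 (SE 0.10, adjusted p = 0.0029) and 2.35 (SE 0.10, adjusted p = 1.0e-09). TSPAN4, a tetraspanin, rose by 0.84 with EGF (adjusted p = 3.8e-05), and CD151, the tetraspanin bound to α3β1 and α6β4, was 0.41 lower on the log2 scale (log2 fold change -0.41, adjusted p = 7.6e-05), under the fold limit. With bleogen pB1, edgeR called 0 of the 26 ligands, 0 of the 36 activators and adaptors and 0 of the 7 inhibitors as DEGs. An unadjusted p under 0.05 was found for 4, 8 and 2 of them, beside 22.2% of all genes. By the adjusted p alone 1 ligand was higher, TNC (log2 fold change 0.27, adjusted p = 0.0499), and 1 activator lower, TLN1 (-0.33, adjusted p = 0.019). With EGF TNC moved the other way, lower as a DEG (-0.73, adjusted p = 2.1e-06), whereas TLN1 was again lower (-0.60, adjusted p = 8.3e-06). The lists were chosen with earlier results known, and their counts are descriptions beside the 36.9% of all genes that EGF changed and the 1.48% that bleogen pB1 changed.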

How the data were processed

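RNA of 9 libraries (untreated, EGF and bleogen pB1, 3 each, grouped by title) was measured. The labels name an RNeasy kit, oligo-dT selection, dUTP stranding and the DNBSEQ platform, whereas the methods of the study name a PureLink kit and a BGISEQ instrument. The authors had reads mapped to GRCh38.p12 by the sequencing company; the counting program and its use of strand are not given in the sources used here. Annotated genes on the opposite strand overlap 8 of the 10 integrins (ITGA3 and ITGB6 have none), and reads of such pairs may not be told apart. The authors deposited expected counts, estimated for each gene and unscaled, and FPKM, scaled for length and depth. The deposited length is an average over a gene's transcripts in that library. A gene absent from a file was counted as 0.

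Expected counts were rounded and tested in edgeR 4.0.16 (R 4.3.3): filterByExpr (12394 genes), TMM, glmQLFit and glmQLFTest on all 9 libraries (6 residual degrees of freedom), Benjamini-Hochberg adjustment. SE is the absolute log2 fold change over the square root of F. The study used DESeq2 at the same thresholds. Alternatives were DESeq2 1.42.0, other scaling factors and filters, the 6 compared libraries, limma 3.58.1 on log2(FPKM + 1) or log2(FPKM + 0.1), other thresholds, leaving out each library, and a block for the replicate number. The code was tested on simulated data.

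The members, gene lists and tests were chosen with earlier results of these data known. Named were all 10 members, other integrins past the filter, per list the 3 largest rises and falls among DEGs with a mean of at least 50 expected counts, and for 2 members the 3 most similar genes; LAMB3, CD151, CDH5, TNC and TLN1 were further named after their values were seen. Another 3 genes chosen this way are counted in their lists but not reported here by name. Coordinates and exons are from GENCODE 44 (GRCh38), 1-based, and sequences from RefSeq; ITGA3 and ITGB4 had no entry. Ratios and lengths were compared with exact permutation tests, two-sided, and figures and ratios were made with pandas 2.3.3, numpy 2.4.6 and scipy 1.17.1 in Python 3.11.15.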

Additional observations from a re-analysis of the deposited data

How the results depend on the processing

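Over 17 alternatives of tool, scaling, filter, unit and libraries, the direction of every integrin stayed the same with EGF and with bleogen pB1 against untreated cells, except ITGB6 with EGF (16 of 17), and ITGB6 kept its sign in 11 of 17 in the direct comparison. Calls by adjusted p were lost for ITGB5 with EGF in 5 alternatives, the 2 scalings given above and the 3 limma fits of FPKM (log2 fold change 0.11, adjusted p 0.080 to 0.10), and for ITGB8 in the direct comparison as given above. By the adjusted p alone the integrins called were 9, 1 and 9 in EGF, bleogen pB1 and the direct comparison, in place of 4, 0 and 4; at an absolute log2 fold change of 1 they were 2 with EGF and 0 in the direct comparison. Leaving out each library gave 0 to 1 called with bleogen pB1. Over all genes the same edgeR fit gave 8187 and 1892 DEGs under these 2 thresholds with EGF, against 4578 at the thresholds used above. With bleogen pB1 they were 509 and 31, against 183, and in the direct comparison 7214 and 1458, against 3564. Without 1 library there were 102 to 436 DEGs with bleogen pB1, the highest without its first library, and limma gave 99 to 146. Upper-quartile factors shifted the median of all genes with EGF to -0.12, with 1396 DEGs higher and 3221 lower in place of 1875 and 2703.

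The replicate number as a block left 4 and 0 integrins called with EGF and bleogen pB1 and 5 in the direct comparison, where ITGA2 reached 0.50, with 4560, 186 and 3550 DEGs over all genes. The correlation across genes of deviations from the group means was -0.03 to 0.21 between same-numbered libraries and -0.25 to 0.16 between unlike-numbered ones. The highest value belonged to a same-numbered pair, but the ranges overlapped widely, and the numbers were not taken as pairs.

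Shares of the αv partners on CPM in place of FPKM were 35.9%, 25.2% and 38.9% for ITGB5, ITGB6 and ITGB8 in untreated, 35.6%, 26.9% and 37.5% in bleogen pB1-treated and 41.9%, 27.5% and 30.6% in EGF-treated cells. CPM does not divide by length, and ITGB8 is then the largest share without EGF. Ratios that changed sign when 1 library was left out were ITGB6/ITGB5 with EGF (log2 difference -0.19 to 0.044), ITGB8/ITGB5 (-0.088 to 0.015) and ITGAV/ITGB1 (-0.021 to 0.040) with bleogen pB1, and ITGA5/ITGA3 between the agents (-0.075 to 0.070); the cause was not tested. List medians moved in 60 cases beyond the spread, and 7 changed sign, among them those of the inhibitors and membrane partners with EGF.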

Other observations

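The 10 genes used as keratinocyte markers moved in both directions with EGF, with 3 higher and 3 lower as DEGs. The basal keratins parted, as KRT14 rose by 0.88 (SE 0.07, adjusted p = 3.0e-07, edgeR) and KRT5 fell by 1.12 (SE 0.08, adjusted p = 1.7e-07). TP63, the transcription factor of basal keratinocytes, rose by 0.50 (adjusted p = 0.00016), whereas DSP, the desmosomal plakin, and CDH1, E-cadherin, fell by 0.70 (adjusted p = 2.8e-05) and 0.66 (adjusted p = 3.1e-06).

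The deposited length of ITGA6, an average over its 3 transcripts, was 5846 to 5850 bases in the EGF-treated libraries, 5852 to 5855 in the untreated and 5855 to 5858 in the bleogen pB1-treated ones. The EGF-treated libraries overlapped neither other group, at an exact permutation p of 0.1, two-sided, the smallest that 3 against 3 libraries allow. For ITGB4 the EGF-treated libraries (5792.5 to 5794.8 bases) lay apart from the bleogen pB1-treated ones (5795.4 to 5796.2) but overlapped the untreated ones. The mean length of ITGB5 differed from untreated by more, 31 bases with EGF and 42 with bleogen pB1, in libraries that overlapped. ITGAV, ITGB1 and ITGB6 overlapped in every comparison. The files list 1 transcript each for ITGA2, ITGA3, ITGA5 and ITGB8, so that their lengths carry no such value.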
